A study of Arabidopsis thaliana with 12 samples.

Results

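AGL103, AGL54, IAA31, RAP74 and AT2G28200, 5 Arabidopsis thaliana genes whose products regulate transcription in the nucleus, were followed in the toc34 mutant and in wild type. They were selected on their deposited values in the comparison of toc34 with wild type, so their genotype differences are given as a description with no p-value, and whether a member passed the fit over all spots is stated only beside the share of all spots that passed. Each of the 5 has 1 spot that the platform annotation lists for that gene alone, out of 692 such single-gene spots among 3439 spots in all. The series holds 12 arrays of total RNA, 6 of the toc34 mutant and 6 of wild type (WT), each group in ecotype Columbia 0. The labels say that toc34 imports proteins poorly through the outer chloroplast envelope, and they name no allele, tissue, age or growth condition. Replicate numbers run from 1 to 6 in each genotype, and no label ties an array to a separate plant or culture, so the spread between arrays may be technical. TOC34 itself has 0 spots of its own here, so the genotype labels were not checked against that gene.

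Most chloroplast proteins are encoded in the nucleus, made in the cytosol and imported through the TOC complex of the outer envelope, in which TOC34 is a GTP-binding receptor. Plastids in turn influence which nuclear genes are transcribed. The members act at different steps of nuclear transcription. AGL103 and AGL54 carry the names of AGAMOUS-like MADS-box proteins, DNA-binding transcription factors with a shared domain. IAA31 belongs to the Aux/IAA proteins, which repress auxin-responsive genes by binding to auxin response factors. RAP74 is the large subunit of TFIIF, a general factor that accompanies RNA polymerase II to promoters, and AT2G28200 encodes a zinc finger protein.

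The deposited values are linear intensities from 0 to a ceiling just under 100, with no unit stated. Summed intensity per array ran from 1988 to 3553, and 2784 to 2974 spots per array lay above 0. The median intensity of the spots above 0 lay between 0.158 and 0.223 across arrays. Because arrays differed in scale, log2 differences (toc34 minus WT) were taken after quantile normalization, with values of 0 treated as missing. Arrays with neighbouring numbers (1 and 2, 3 and 4, 5 and 6) were more alike than arrays of the same genotype with numbers further apart. Their correlation across spots was 0.957 to 0.980 in WT and 0.877 to 0.916 in toc34, against 0.920 to 0.949 and 0.806 to 0.835 for other numbers, so each genotype may hold fewer than 6 independent samples. Values are therefore also given within these pairs of numbers. The standard errors below treat arrays as independent, and over all arrays they were larger for each member with neighbouring numbers averaged. They were then 0.25 for AGL103, 0.73 for AGL54, 0.34 for IAA31, 0.27 for RAP74 and 0.3 for AT2G28200. For AT2G28200 the average lacks WT numbers 3 and 4, which were at 0. Its standard error with neighbouring numbers as a random block was larger, at 0.39.

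In toc34, 3 members were higher (AGL103, AT2G28200 and IAA31) and 2 were lower (RAP74 and AGL54). The measured values of the genotypes did not overlap for 3 of the 5, AGL103, AT2G28200 and RAP74, as for 21.2% of all tested spots, and each of these 3 differed in every pair of numbers that could be compared. Nothing is read from that count, since the members were chosen on this comparison. IAA31 and AGL54 overlapped, because toc34 arrays 1 and 2 lay at or near WT levels and the other 4 toc34 arrays did not. The plot of intensity by array shows both kinds of pattern. In bulk RNA, fewer cells that express a gene and less of its RNA per cell cannot be told apart.

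**Figure D1:**
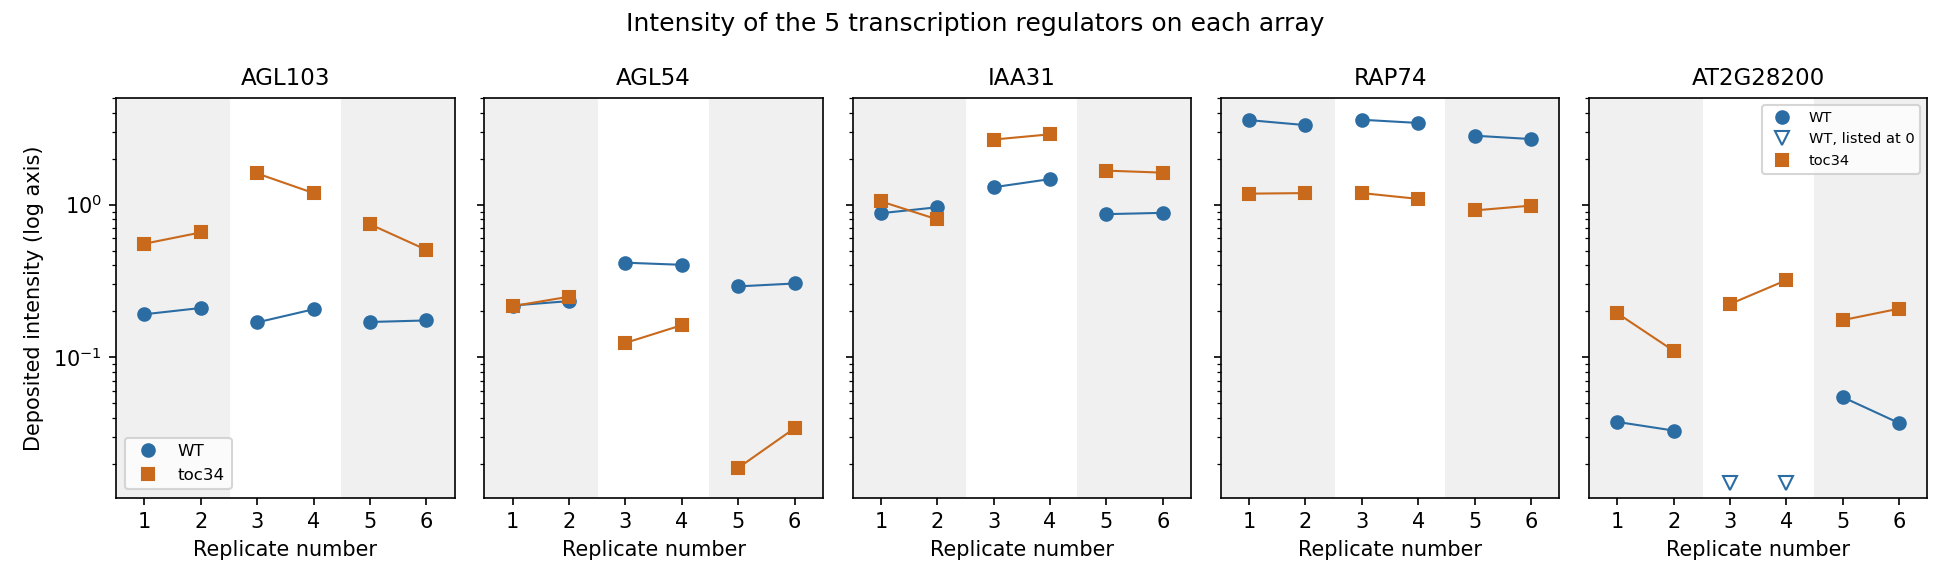
Deposited intensity (log axis) of the 5 genes on each array against the replicate number, with WT as circles and toc34 as squares, lines joining neighbouring numbers, grey bands marking numbers 1 and 2 and numbers 5 and 6, and open triangles marking values listed at 0. AGL103, RAP74 and AT2G28200 separate the genotypes at every number, whereas AGL54 and IAA31 meet at numbers 1 and 2.

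Of the MADS-box genes, AGL103 (AT3G18650, on chromosome 3) had WT intensities of 0.191, 0.210, 0.169, 0.206, 0.170 and 0.174 on arrays 1 to 6. In toc34 they were 0.554, 0.657, 1.60, 1.19, 0.743 and 0.505. Every toc34 array lay above every WT array, and toc34 arrays 3 and 4 had the highest deposited values. The mean was 0.187 ± 0.0182 in WT and 0.874 ± 0.430 in toc34 (SD, n = 6 arrays each). The normalized log2 difference was 2.23 (SE 0.18), a 4.69-fold higher level in toc34.

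The rank of AGL103 by brightness on its array, on which quantile normalization itself rests, shifted in the same direction. In WT the spot stood between the 42.6th and the 54.3rd percentile of measured spots, near the middle of the array, and in toc34 between the 82.3rd and the 89.8th. Its difference was 1.79 (SE 0.18) within numbers 1 and 2, 2.61 (SE 0.21) within 3 and 4 and 2.29 (SE 0.29) within 5 and 6. The WT arrays were close together, with a highest value 1.24 times the lowest, and the toc34 arrays were spread over 3.16 times.

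AGL54 (AT5G27090, on chromosome 5) went the other way and was far less even. Its WT intensities were 0.218, 0.233, 0.416, 0.403, 0.291 and 0.304 on arrays 1 to 6. In toc34 they were 0.216, 0.249, 0.124, 0.162, 0.0188 and 0.0342. Arrays 1 and 2 of toc34 lay close to arrays 1 and 2 of WT, arrays 3 and 4 were lower than any WT array, and arrays 5 and 6 were lower still. The mean was 0.311 ± 0.0832 in WT and 0.134 ± 0.0939 in toc34 (SD, n = 6 arrays each). The normalized log2 difference of -1.53 (SE 0.53), a 2.89-fold lower level, thus averages over unlike pairs.

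Within numbers 1 and 2 the difference of AGL54 was 0.17 (SE 0.18), within 3 and 4 it was -1.48 (SE 0.18), and within 5 and 6 it was -3.28 (SE 0.35). The highest toc34 value was 13.3 times the lowest, against 1.91 times in WT. Neighbouring toc34 arrays differed by at most 0.84 on the normalized log2 scale, while the means of the 3 pairs ranged over 3.0. A smaller range was found in toc34 for 97.2% of the 2337 spots that were tested and measured on all 12 arrays, where the median range was 0.83. In WT the range of AGL54 was 0.60, against a median of 0.46. On toc34 arrays 5 and 6 the spot was dim, at the 5.5th and the 10.5th percentile of measured spots.

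AGL54 is also listed on a second spot, which it shares with AGL53 and AGL93, related MADS-box genes of chromosome 5. Between AGL54 and AGL53 the RefSeq annotation places 1 protein-coding gene, and 14 lie between AGL54 and AGL93. The shared spot was dim, with WT intensities of 0.101, 0.0920, 0.0773, 0.0622, 0.0829 and 0.0727 and toc34 intensities of 0.0648, 0.0112, 0.00493, 0.00637, 0.0642 and 0.0821. Here toc34 arrays 2, 3 and 4 were low and arrays 5 and 6 lay at WT level, so the arrays that were lowest for AGL54 alone were not those that were lowest on the shared spot. The difference of the shared spot was -1.63 (SE 0.73) over all arrays, and -1.65 (SE 0.93), -3.54 (SE 0.20) and 0.30 (SE 0.23) within the successive pairs of numbers. A further spot, shared by AT5G27944, AGL89, AGL101 and AGL26, was listed at 0 on all 6 WT arrays and on 4 of 6 toc34 arrays, with 0.0552 and 0.00158 on toc34 arrays 1 and 2.

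IAA31 (AT3G17600, on chromosome 3) belongs, with IAA20 and IAA30, to Aux/IAA proteins in which the degron bound by auxin receptors is missing or incomplete. Its WT intensities were 0.878, 0.961, 1.3, 1.47, 0.866 and 0.883. In toc34 they were 1.05, 0.8, 2.67, 2.89, 1.67 and 1.62. Arrays 3 to 6 of toc34 exceeded every WT array, and arrays 1 and 2 fell among the WT values or below them on this deposited scale. The mean was 1.06 ± 0.258 in WT and 1.78 ± 0.844 in toc34 (SD, n = 6 arrays each), and the normalized log2 difference was 0.78 (SE 0.23), a 1.72-fold higher level.

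After normalization the WT arrays of IAA31 were very even, with pair means ranging over 0.16, and the higher deposited values of WT arrays 3 and 4 moved close to the level of the others. The toc34 pair means ranged over 1.09. The difference was 0.17 (SE 0.23) within numbers 1 and 2, 0.94 (SE 0.16) within 3 and 4 and 1.24 (SE 0.15) within 5 and 6. Like AGL54, IAA31 therefore showed no difference beyond its standard error at numbers 1 and 2, and at the other numbers IAA31 was higher and AGL54 lower in toc34. The spot was bright in each genotype, at the 87.0th to the 89.3rd percentile of measured spots in WT and the 87.0th to the 94.4th in toc34.

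A spot shared by IAA31, IAA30 and IAA20 did not show the difference of IAA31 alone. Its WT intensities were 0.205, 0.309, 0.325, 0.382, 0.315 and 0.341, and its toc34 intensities were 0.123, 0.142, 0.691, 0.502, 0.146 and 0.279. Only toc34 arrays 3 and 4 exceeded the WT values, and toc34 arrays 1, 2 and 5 lay below them. The difference was -0.22 (SE 0.33) over all arrays, and -0.78 (SE 0.28), 0.59 (SE 0.23) and -0.47 (SE 0.42) within the successive pairs of numbers. A spot listed for IAA30 and IAA20 without IAA31 was at 0 on 5 of 6 WT arrays and 4 of 6 toc34 arrays, and its highest value was 0.0378. The files do not say which of the genes gives the signal of a shared spot.

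**Figure D2:**
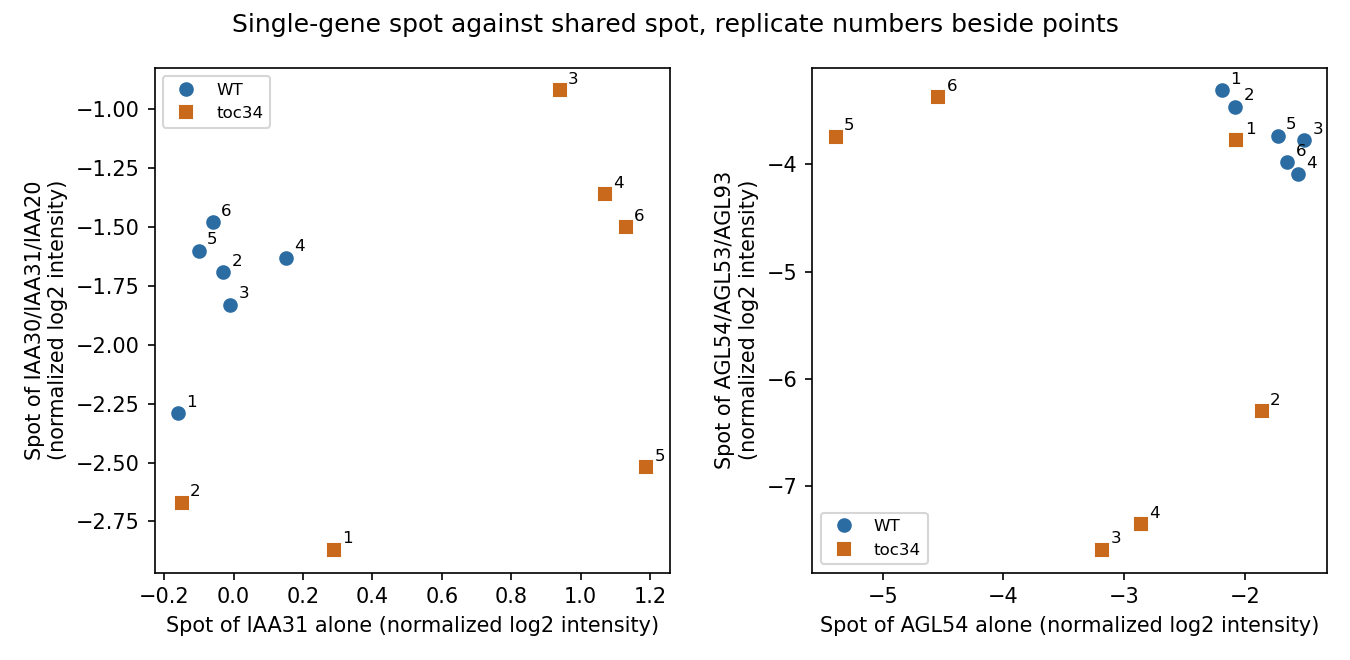
Normalized log2 intensity of the spot of IAA31 alone (left, horizontal axis) and AGL54 alone (right, horizontal axis) against the spot each gene shares with related genes (vertical axes), 1 point per array with its replicate number, WT as circles and toc34 as squares. On the right, toc34 arrays 5 and 6 are low on the spot of AGL54 alone and toc34 arrays 2, 3 and 4 are low on the shared spot.

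RAP74 (AT4G12610, on chromosome 4), the member of the general transcription machinery, was the most even of the 5 within toc34 on the deposited scale. Its WT intensities were 3.58, 3.32, 3.60, 3.43, 2.83 and 2.69. In toc34 they were 1.18, 1.19, 1.19, 1.09, 0.916 and 0.985. Every toc34 array lay below every WT array, with a gap wider than the spread within either genotype on a log scale. The mean was 3.24 ± 0.390 in WT and 1.09 ± 0.119 in toc34 (SD, n = 6 arrays each), a ratio of deposited means of 2.97. After normalization the log2 difference was -1.37 (SE 0.17), a 2.59-fold lower level in toc34.

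The lower level of RAP74 was of similar size at all numbers, at -1.31 (SE 0.16) within 1 and 2, -1.62 (SE 0.15) within 3 and 4 and -1.20 (SE 0.15) within 5 and 6. The highest toc34 value was 1.3 times the lowest and the highest WT value 1.34 times the lowest. The spot remained among the bright ones in toc34, at the 86.2nd to the 91.3rd percentile of measured spots, against the 94.9th to the 96.0th in WT.

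AT2G28200, the zinc finger gene on chromosome 2, had WT intensities of 0.0376, 0.0330, 0.0546 and 0.0369 on arrays 1, 2, 5 and 6 and was listed at 0 on arrays 3 and 4. In toc34 it was measured on all 6 arrays, at 0.194, 0.110, 0.223, 0.320, 0.175 and 0.208. Every toc34 array exceeded every WT array. The spot stood at percentiles 6.1 to 11.5 of measured spots in WT and at percentiles 34.2 to 61.4 in toc34, so it moved from the dim end of the array to about the middle. The normalized log2 difference of 2.57 (SE 0.25), a 5.92-fold higher level, leaves out the 2 WT arrays at 0, and it was 2.61 (SE 0.29) when an offset of 0.0216 was added before the logarithm so that they could be kept.

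Numbers 1 and 2 gave a difference of 2.27 (SE 0.34) for AT2G28200 and numbers 5 and 6 one of 2.72 (SE 0.35). Numbers 3 and 4 gave none, since WT was at 0 there, while the deposited toc34 values there were 0.223 and 0.320. The WT level is close to the low end of what the arrays registered, so the size of the difference depends on how dim values were handled before deposit, which was not tested.

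**Figure D3:**
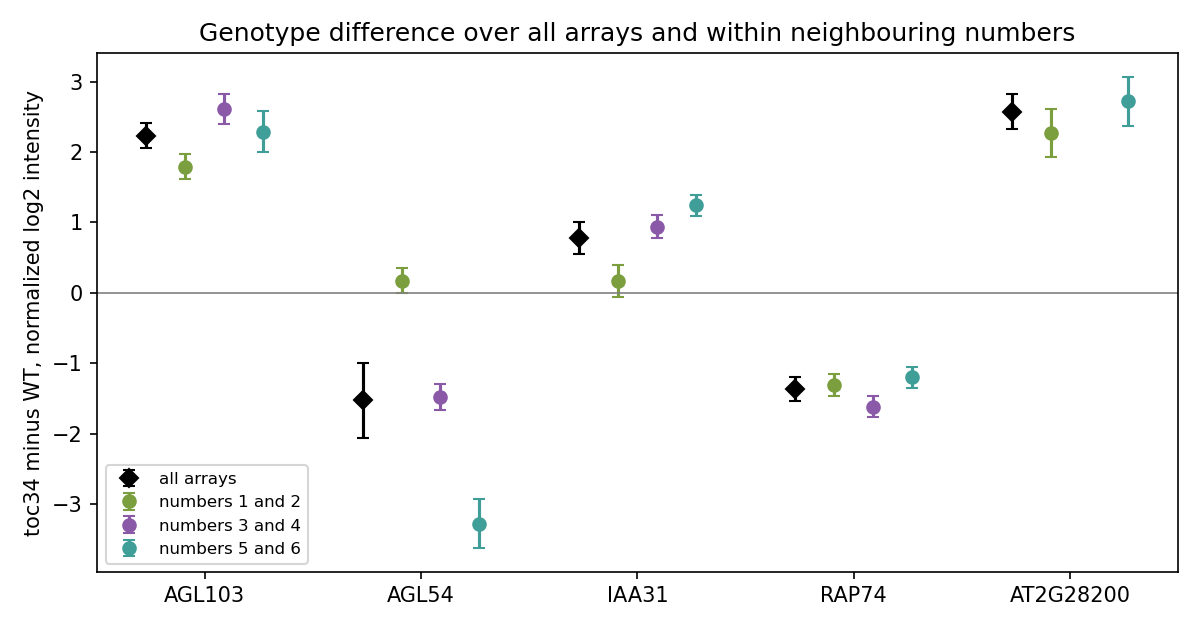
Difference between toc34 and WT in normalized log2 intensity (vertical axis) for the 5 genes, over all arrays (diamonds) and within numbers 1 and 2, 3 and 4, and 5 and 6 (circles), with bars of 1 standard error from limma. AGL103, RAP74 and AT2G28200 keep their side of 0 in each pair shown, and AGL54 and IAA31 lie at 0.17 within numbers 1 and 2.

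The array as a whole differed strongly between the genotypes. By limma with Benjamini-Hochberg adjustment over 2768 tested spots, 36.0% passed an adjusted p of 0.05, 17.2% higher and 18.9% lower in toc34. The balance of the 475 higher and 522 lower calls depends on the scaling, with 335 higher and 590 lower on the deposited scale. All 5 members were among the called spots, 3 higher and 2 lower, which follows from how they were chosen. Of all tested spots, 7.08% had every measured toc34 value above every WT value, as AGL103 and AT2G28200 did, and 14.1% had every one below, as RAP74 did. With neighbouring numbers as a random block 22.6% of spots were called and with neighbouring numbers averaged 13.8%, in each case without AGL54 and IAA31. With the replicate number as a block 36.5% were called, among them 4 of the members but not AGL54.

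The median size of the difference was 1.53 for the 5 genes and 0.60 for all tested spots on the log2 scale, again as a description. The sign of each member was the same on the deposited scale, with arrays centred on their medians, with cyclic loess and with the offset. On the deposited scale the median difference of all spots was -0.20, against -0.05 after quantile normalization. Relative to that median, the differences on the deposited scale were 2.30 for AGL103, 2.50 for AT2G28200, 0.84 for IAA31, -1.37 for RAP74 and -1.48 for AGL54. After quantile normalization they were 2.28, 2.62, 0.83, -1.32 and -1.48 in the same order.

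Only 3 other genes on single-gene spots matched a list of transcription regulator names: LAS, TCP15 and AGL26. The list goes by names, so regulators whose names fit none of its patterns are not counted. Of these 3, 0 rose and 0 fell by limma, and 0 had an unadjusted p under 0.05, beside 36.0% of all tested spots called. LAS, a GRAS protein needed to form axillary meristems, had intensities of 0.432, 0.416, 0.344, 0.329, 0.494 and 0.452 in WT and 0.557, 0.530, 0.495, 0.545, 0.252 and 0.278 in toc34. On this deposited scale toc34 arrays 1 to 4 lay above all WT arrays and arrays 5 and 6 below them, and after normalization the genotypes were intermixed. The normalized log2 difference was 0.14 (SE 0.23, limma adjusted p = 0.667).

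TCP15, a TCP-family factor that acts on growth and cell proliferation, had WT intensities of 0.170, 0.167, 0.224, 0.211, 0.285 and 0.254 and toc34 intensities of 0.0119, 0.0944, 0.133, 0.108, 0.210 and 0.187. Arrays 1 to 4 of toc34 were lower than every WT array, and arrays 5 and 6 were not. Its difference was -1.02 (SE 0.54, limma adjusted p = 0.165), and -0.50 without toc34 replicate 1. AGL26, counted here by its AGAMOUS-like name alone since the files do not show whether it encodes a MADS-box protein, ran from 0.213 to 0.268 in WT and from 0.158 to 0.620 in toc34, with a difference of 0.48 (SE 0.28, limma adjusted p = 0.2). Within numbers 1 and 2, 3 and 4, and 5 and 6 the difference of TCP15 was -1.99 (SE 0.96), -0.89 (SE 0.18) and -0.20 (SE 0.18), and that of AGL26 was 0.66 (SE 0.34), 1.09 (SE 0.22) and -0.31 (SE 0.18).

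**Figure D4:**
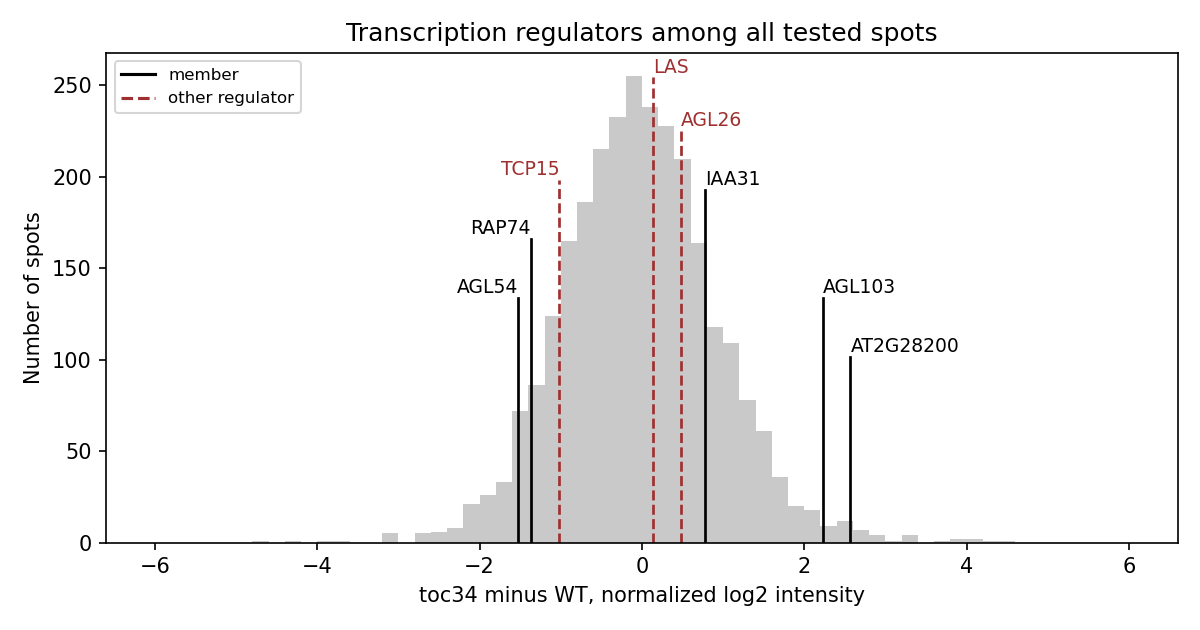
Number of tested spots (vertical axis) by their difference between toc34 and WT in normalized log2 intensity (horizontal axis), with the 5 genes as solid lines and the 3 other regulators as dashed lines; the heights of the lines carry no value. AT2G28200 at 2.57 and AGL103 at 2.23 lie in the upper tail, and LAS at 0.14 lies near the middle.

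The genes whose levels ran most like a member's were sought among single-gene spots by Pearson's r of normalized log2 intensity over the arrays on which the member was measured. These values describe 2 groups of arrays that differ in genotype and share neighbouring numbers, so no p is given. The nearest 3 of 477 genes to AGL103 over 12 arrays were AT3G09250 (r = 0.98), AT2G36480 (r = 0.97) and AT3G26580 (r = 0.97). The nearest to AT2G28200, among 483 genes over 10 arrays, were the same 3, each at r = 0.97. None of these 3 was among the nearest to any other member. The levels include the genotype difference on which AGL103 and AT2G28200 were chosen, and both were higher in toc34. With each genotype's mean removed, AGL103 and AT2G28200 correlated at r = -0.0 (rho = -0.19, over 10 arrays) and had no nearest gene in common.

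Over 12 arrays RAP74 ran closest to AT5G53920 (r = 0.97), AT2G37750 (r = 0.96) and AT3G47650 (r = 0.96). The nearest to IAA31 were AT1G50510 (r = 0.94), AT1G15410 (r = 0.94) and AT5G48830 (r = 0.90). For AGL54 they were AT5G38310 (r = 0.96), AT2G46220 (r = 0.92) and AT2G04790 (r = 0.89). Spearman's rho was 0.45 for AT2G46220, against 0.67 or more for every other gene named by level.

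With each genotype's mean removed, the likeness rests on how arrays of 1 genotype vary. AT1G50510 and AT1G15410 then still ranked among the 3 nearest to IAA31 (r = 0.94 and 0.92), behind AT4G24750 (r = 0.96), and AT5G38310 among the 3 nearest to AGL54 (r = 0.95), between AT1G62150 (r = 0.96) and AT4G20300 (r = 0.93). For AGL103 the nearest by this measure were AT2G31800 (r = 0.90), AT5G27860 (r = 0.87) and AT3G51510 (r = 0.81). For RAP74 they were AT1G69910 (r = 0.94), AT2G34050 (r = 0.92) and AT1G24240 (r = 0.91). For AT2G28200 over 10 arrays they were SPL (r = 0.77), AT5G49840 (r = 0.77) and AT1G76240 (r = 0.76), where Spearman's rho was 0.58, 0.49 and 0.28. SPL, also called NOZZLE, is a nuclear regulator of sporocyte formation whose names fit none of the regulator patterns.

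Between members, the deviations from the genotype means correlated at r = -0.76 (rho = -0.49) for AGL54 and IAA31 over 12 arrays, the strongest value among the 5 genes. AGL103 and IAA31 had r = 0.46 (rho = 0.43), AT2G28200 and IAA31 had r = 0.65 (rho = 0.33, over 10 arrays), and RAP74 had negative values with each of the other 4, from -0.21 with AGL54 to -0.44 with AGL103. IAA31 and its shared spot had r = 0.60 (rho = 0.54), whereas AGL54 and its shared spot had r = -0.48 (rho = -0.59).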

How the data were processed

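Total RNA of 6 toc34 and 6 WT samples was measured on 1 array each, and groups and replicate numbers come from the sample titles. The deposited values were read as linear intensities from the values themselves. Background subtraction, scaling and labelling by the authors before deposit are not given in the sources used here, and they could set dim spots to 0. Values of 0 were taken as missing, log2 intensities were quantile-normalized, and the 2768 spots with at least 4 measured values per genotype were fitted with lmFit and eBayes of limma 3.58.1 (R 4.3.3), with Benjamini-Hochberg adjustment over all of them. The fit was tested on simulated data with independent noise on each array, which cannot show how it behaves where neighbouring numbers are alike. The members and lists were chosen with earlier results of these data known.

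Members were found by locus through the platform annotation of 2016 and a RefSeq gene table (TAIR10.1), which matched 690 of 692 single-gene spots. The array's genome build is not given, so positions served only to order neighbouring genes, and sequences were not used here. The other regulators are the single-gene spots whose symbol or synonyms match fixed name patterns. A match of AT4G37230 through a clone name was left out. Spots shared by several genes were looked up after the values had been seen. Named genes were the 5 members, every tested single-gene spot that matched the name patterns, and the 3 genes most like each member. Same-numbered arrays deviated together across genotypes (r = 0.13 to 0.27 over spots, all above 0.1). Arrays of different number were not compared across genotypes, so these values cannot show that the number is a pairing. The main fit used no pairing, and the replicate block was fitted as an alternative. The alternatives changed the scaling, the treatment of 0 and of ceiling values, the filters, the block, array weights and the arrays kept. The number of arrays limits the precision.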

Additional observations from a re-analysis of the deposited data

Results flagged for a closer look

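In 19 groups of 6 arrays (the members, the other regulators and the shared spots in each genotype), 1 array stood far from the others, where chance gives about 0.95. It was toc34 replicate 1 for TCP15, at a normalized log2 intensity of -5.89 against -3.40 to -1.94 on the other 5, a ratio of gap to range of 0.629, just past Dixon's 95% critical value for 6 arrays. Its deposited intensity there was 0.0119.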

How the results depend on the processing

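Of 133 values of the 5 members under the alternatives, 127 moved by less than the spread between arrays, 5 moved by more and 1 changed sign. All 6 came with fits within a pair of numbers, which use fewer arrays. Many of the 127 could hardly move. The filters and the fits with neighbouring numbers as a random block or averaged used the same normalized values as the main fit. AGL103, for example, stayed at 2.23 in each. Fits with 1 array left out shared all other arrays with the main fit. The count of 127 is therefore no measure of how firm the differences are. AGL54 was 0.17 within numbers 1 and 2 and -3.28 within 5 and 6, IAA31 was 0.17 and 1.24 there, and AGL103 was 1.79 within 1 and 2 and 2.61 within 3 and 4. With 1 array left out AGL54 ran from -1.82 to -1.12, IAA31 from 0.69 to 0.96, AGL103 from 2.12 to 2.31, RAP74 from -1.42 to -1.28 and AT2G28200 from 2.48 to 2.75. AGL54 left the called spots without any 1 of the WT arrays, where 31.5% to 32.5% of all tested spots were called. It also left them without toc34 replicate 3, 5 or 6, where 34.7%, 35.9% and 36.2% were called. IAA31 left them on the deposited scale, where 33.4% were called, and, like AGL54, within numbers 1 and 2, where 28.6% were. The count of 997 called spots was 625 with neighbouring numbers as a random block, 381 with them averaged and 558 within numbers 5 and 6. The replicate block gave 1010. Of the 3 other regulators, 2 were called within numbers 3 and 4, where 29.4% of all tested spots were called. That fit has 2 arrays per genotype, which may not be independent. LAS turned to -0.57 and AGL26 to -0.31 within numbers 5 and 6. The cause of these changes was not tested. AT2G28200 gave no value within numbers 3 and 4 or among spots measured on all 12 arrays. Dim values, below the offset of 0.0216 on toc34 array 5 for AGL54, are the least precise.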
